A study of Zea mays with 10 samples.

Results

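*WOX3* genes encode WUSCHEL-related homeobox transcription factors that act at the edges of developing leaves. In maize, *narrow sheath1* (*ns1*) and its duplicate *ns2* are active in founder cells at the flanks of the incipient leaf and along the margins of young primordia, and plants that lack both genes make leaves without their lateral domains. The corresponding *Arabidopsis* gene is *PRESSED FLOWER*. Leaf blade and margin form where the upper, adaxial side of a primordium meets the lower, abaxial side. *lbl1* encodes the maize SGS3 protein, which is needed to make the small tasiR-ARFs that keep *ARF3* transcripts, which specify abaxial fate, out of the adaxial side, and severe *lbl1* mutants make narrow or radial leaves.

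Members were taken by name and identifier. Rows of the expression table whose symbol is *wox3a* or *wox3b* in any case, together with the identifiers GRMZM2G069028 and GRMZM2G122537, gave 2 genes of the 109874 listed. GRMZM2G069028, written WOX3A in the table, lies on chromosome 2 from 142531613 to 142533651 on B73 RefGen_v2. A later maize annotation (NAM-5.0) lists *ns1* and *prs* among its symbols, so it is called *ns1* here. GRMZM2G122537, written wox3A in the table, lies on chromosome 6 from 30106758 to 30108877. The later annotation calls it *wox3A* and HB82 and does not give it a narrow sheath name, so it is called *wox3A* here and not *ns2*. That annotation places *ns2*, also named WOX3B, on chromosome 4 and pairs it with none of the table's identifiers, and *ns2* was not analysed here. Neither member locus overlaps another annotated gene, so no overlapping annotation competed for its reads.

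RNA came from the shoot apices of 2-week-old seedlings, dissected to hold the shoot apical meristem and at most 5 leaf primordia. The 2 wild-type samples are labelled WT and the 2 mutant samples LBL1 -/-, and both carry the B73 label for their background. The mutant allele is *lbl1-rgd1*, which was crossed into B73 at least 3 times, so chromosome 6 of the mutant may still carry foreign sequence next to *lbl1*. Foreign sequence may remain on other chromosomes as well. The deposited table gives 1 value per gene and genotype in RPKM, a read number scaled to transcript length and to the mapped reads, over both samples of the genotype. These pooled values allow no spread between samples and no test, and the number of reads behind each is unknown. The table also holds the authors' own test results, which were not used here.

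Both *WOX3* transcripts were scarce in the wild-type apex and lower still in *lbl1*. The level of *ns1* was 2.67 RPKM in the wild type against 0.380 RPKM in the mutant, which is 7.03-fold lower. The level of *wox3A* was 2.54 RPKM in the wild type against 1.01 RPKM in the mutant, which is 2.51-fold lower. The mutant apex thus held 14.2% of the wild-type *ns1* level and 39.9% of the wild-type *wox3A* level. Neither difference was tested here against the spread between samples, since the expression values are pooled by genotype. In such bulk tissue, fewer cells that express a gene and less RNA per cell cannot be told apart.

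In wild type the levels of the 2 genes were close, with *ns1* 1.05 times as high as *wox3A*. In *lbl1* their order was the opposite, with *wox3A* at 2.67 times the level of *ns1*. This order and the 7.03-fold difference of *ns1* rest on a mutant *ns1* value under 1 RPKM (0.380 RPKM). The mutant *wox3A* value, 1.01 RPKM, was barely above 1 RPKM. RPKM is scaled to transcript length, which a comparison between genes needs. It rests on uniquely mapped reads, so reads that map to several places are not counted. Whether such a loss differs between the 2 genes was not measured. Whether the 2 genes differ in their response was not tested, since there is 1 value per genotype. The sum of the 2 levels was 5.21 RPKM in the wild type against 1.39 RPKM in the mutant.

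**Figure D1:**
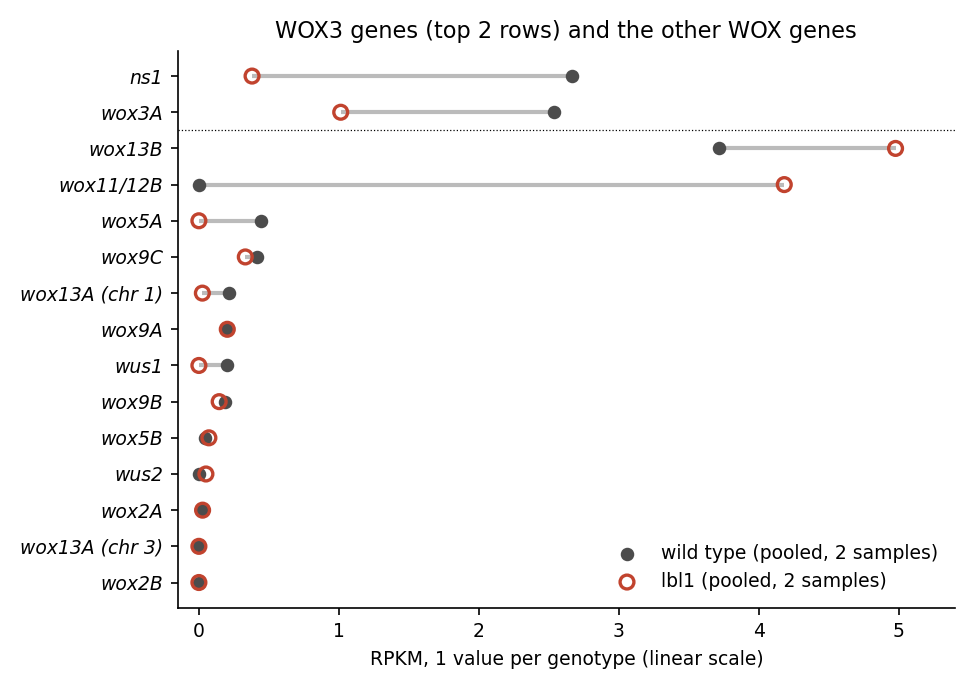
RPKM on a linear scale for *ns1*, *wox3A* and the other 13 matched WOX genes, with a filled point for wild type, an open point for *lbl1* and a grey line between the values. *ns1* lies at 2.67 and 0.380 RPKM and *wox3A* at 2.54 and 1.01 RPKM, while 11 of the other genes stay below 1 RPKM in both genotypes.

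On the log2 scale the mutant over wild-type ratio was −2.81 for *ns1* and −1.33 for *wox3A*. The median gene with at least 1 RPKM in both genotypes was at −0.10, and relative to it the log2 ratios were −2.71 for *ns1* and −1.23 for *wox3A*. Both members passed a criterion of 2-fold lower, 2 of 2, where 12.9% of the 29929 genes that reached 1 RPKM in either genotype did so and 12.6% were at least 2-fold higher. With a pseudocount of 1 RPKM only *ns1* passed, and the log2 ratios were −1.41 for *ns1* and −0.81 for *wox3A*. Low transcripts spread more widely. Among the 8938 genes whose higher value was between 1 and 5 RPKM, the range in which both members lie, 23.2% were at least 2-fold lower and 22.4% at least 2-fold higher. A 2-fold difference alone is therefore common at this level.

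The larger difference of *ns1* was less common. Of the 8938 genes at this level, 847 (9.48%) had a lower ratio of *lbl1* to wild type than *ns1*, and 1559 (17.4%) had a lower ratio than *wox3A*. Among all 29929 genes the shares were 4.74% for *ns1* and 8.94% for *wox3A*. In wild type *ns1* stood at percentile 23.9 and *wox3A* at percentile 23.1 of the levels of these genes. In *lbl1* they stood at percentiles 4.95 and 9.02. The ranked genes were kept for reaching 1 RPKM in either genotype. A gene below 1 RPKM in *lbl1*, such as *ns1* at 0.380 RPKM, was kept through its wild-type value alone. Such a gene must rank low in *lbl1*, and *wox3A* at 1.01 RPKM lies at the edge of the filter. The low percentiles in *lbl1* are thus partly set by the filter, and no conclusion is drawn from them.

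**Figure D2:**
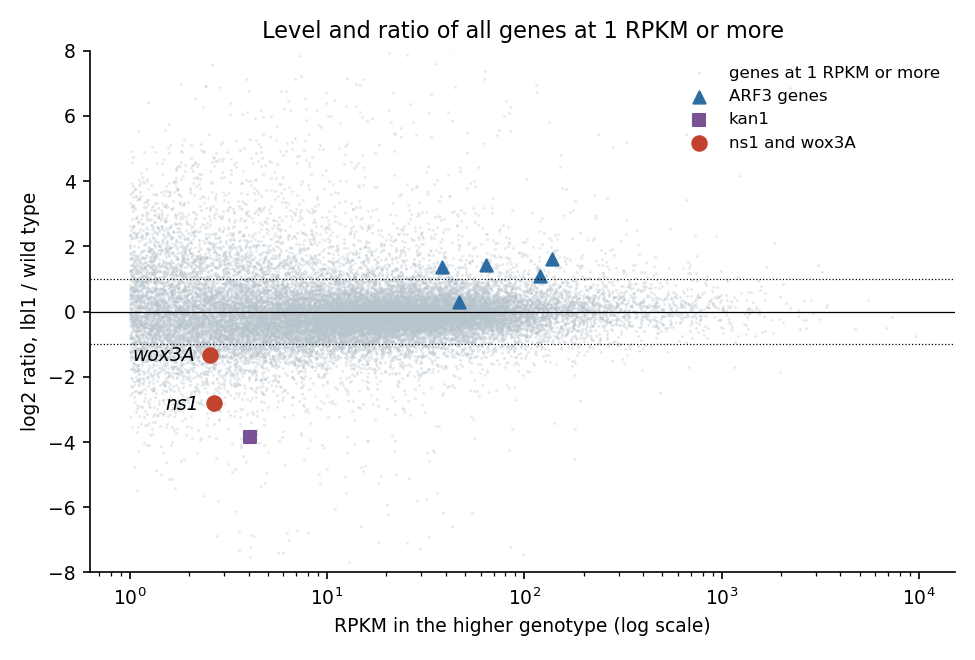
Each point is a gene that reached 1 RPKM in either genotype, with the RPKM of its higher genotype on a log axis and its log2 ratio of *lbl1* to wild type, dotted lines marking 2-fold, and genes listed at 0 RPKM in either genotype, as well as 56 genes with a log2 ratio beyond 8 in size, left out. *ns1* (−2.81) and *wox3A* (−1.33) lie at the left, where ratios spread widely, and 4 of the 5 *ARF3* genes lie above the upper dotted line.

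The pattern most like that of *ns1* among the 954 other genes with a symbol and values above 0 was that of *kan1* (GRMZM2G056400), whose KANADI relatives specify abaxial fate in *Arabidopsis*. *kan1* was at 4.06 RPKM in the wild type against 0.282 RPKM in the mutant. Likeness here is the Euclidean distance between pairs of log2 RPKM values, which was 0.74 for *kan1*, and it rests on only 2 values per gene. The next were *ppr10* (GRMZM2G177169), which encodes an RNA-binding protein of the chloroplast, at 1.99 and 0.713 RPKM and a distance of 1.00, and *GST5* (GRMZM2G308687), a glutathione S-transferase gene, at 1.73 and 0.698 RPKM and a distance of 1.08. For *wox3A* nearer genes were found. *pic11-1* (GRMZM2G091696) was at 2.27 RPKM in the wild type against 1.02 RPKM in the mutant, at a distance of 0.16. *TUBB4* (GRMZM2G066191), a beta-tubulin gene, was at 2.27 and 1.15 RPKM at a distance of 0.25, and *ccr2* (GRMZM2G131836) was at 2.25 and 1.15 RPKM, also at 0.25.

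The *WOX* family as a whole is known for genes that maintain stem cells and pattern organs, such as *WUSCHEL* in the shoot meristem. Of the other 13 matched *WOX* genes, 11 were under 1 RPKM in both genotypes and 2 of these were listed at 0 RPKM in both. Among the 11, no value exceeded 0.441 RPKM in wild type or 0.332 RPKM in *lbl1*. They included both maize *WUSCHEL* genes, with *wus1* (GRMZM2G047448) at 0.198 RPKM in wild type and listed at 0 in *lbl1*, and *wus2* (GRMZM2G028622) listed at 0 in the wild type and at 0.0502 RPKM in the mutant. Differences at such levels could not be read. The *WOX3* genes were thus among the 4 *WOX* genes that reached 1 RPKM in either genotype.

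The other pair that reached 1 RPKM was not lower in *lbl1*. *wox13B* (GRMZM5G805026, chromosome 8, 170705392 to 170708583), of a clade that is expressed in many tissues, was at 3.72 RPKM in the wild type against 4.98 RPKM in the mutant, a 1.34-fold difference that misses the 2-fold criterion. *wox11/12B* (GRMZM5G867601, chromosome 7, 173800983 to 173801177) was listed at 0 in the wild type and at 4.18 RPKM in the mutant, so no fold is given. Its locus spans only 195 bp, over which fewer reads give the same RPKM than over a longer gene. Cuffdiff gave it the status of loci with enough alignments, as it did both *WOX3* genes. The number of reads behind its value is unknown. Of these 2 genes, the only ones of the 13 that could be called, 1 was at least 2-fold higher and 0 were lower. Over all genes at 1 RPKM or more, 12.6% were higher and 12.9% lower. No test could be run on either count.

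The position of *wox3A* limits how its value can be read. The gene lies on the chromosome that carries *lbl1* (GRMZM2G020187, 17165362 to 17171793), 12.9 Mb past it. The *lbl1* transcript itself was at 301 RPKM in the wild type against 226 RPKM in the mutant. Between *lbl1* and *wox3A*, 88 genes reached 1 RPKM in either genotype, of which 21 (23.9%) were at least 2-fold lower in the mutant and 6 (6.82%) at least 2-fold higher. The share of lower genes is larger than the 12.9% of all genes. It is near the 23.2% of genes whose higher value lies between 1 and 5 RPKM. Of those genes, however, 22.4% were at least 2-fold higher, against 6.82% between *lbl1* and *wox3A*. Levels were not matched here. Within 5 Mb on either side of *wox3A*, 26 of 86 genes (30.2%) were at least 2-fold lower, 6 (6.98%) were higher, and the median log2 ratio was −0.52 over the 78 genes with a value above 0 in both genotypes. By side, 8 of 38 genes before *wox3A* and 18 of 48 past it were at least 2-fold lower. Lower genes also outnumbered higher ones within 5 Mb of *ns1* on chromosome 2, at 18.1% against 8.33%.

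Closer to *wox3A* the median was above 0. Within 1 Mb, 2 of the 11 other genes with at least 1 RPKM were at least 2-fold lower and 0 were higher, and the median log2 ratio was 0.12 over the 10 with a value above 0 in both genotypes. The remaining gene was listed at 0 in *lbl1* and at 3.27 RPKM in wild type. The nearest gene that reached 1 RPKM, GRMZM2G122631 (30147023 to 30148824), 38.1 kb past *wox3A*, was 1.35-fold higher in *lbl1*, at 22.7 RPKM in the wild type against 30.7 RPKM in the mutant. The annotated genes directly beside *wox3A*, AC206321.3_FG005 at 102 kb before it and GRMZM2G122595 at 3.50 kb past it, were listed at 0 RPKM in both genotypes. Whether sequence introgressed beside the *lbl1* allele reaches *wox3A* is not known here. An effect of the mutation on *wox3A* and a possible effect of its haplotype therefore cannot be told apart in these data.

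*ns1* lies on another chromosome. Whether foreign sequence remains around *ns1* is not known here either. An effect of the mutation and a possible effect of haplotype thus cannot be told apart for *ns1*. Within 1 Mb of *ns1*, 1 of 8 genes was at least 2-fold lower and 1 was higher, with a median log2 ratio of −0.07. Within 5 Mb, 13 of 72 genes (18.1%) were at least 2-fold lower, 6 (8.33%) were higher, and the median was −0.06 over the 67 genes with a value above 0 in both genotypes. The lowest log2 ratio among these 67 was −1.79, against −2.81 for *ns1*. The other 5 genes, all among the 13 lower ones, were listed at 0 in *lbl1* with wild-type levels from 1.23 to 33.2 RPKM. They have no ratio, so *ns1* cannot be called the most strongly lowered gene of its surroundings. Its direct neighbours, GRMZM2G703183 at 2.40 kb before it and GRMZM2G481210 at 20.5 kb past it, were listed at 0 RPKM in both genotypes, and the nearest gene to reach 1 RPKM, GRMZM2G113033, was 261 kb away at 0.729 RPKM in the wild type against 1.02 RPKM in the mutant.

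**Figure D3:**
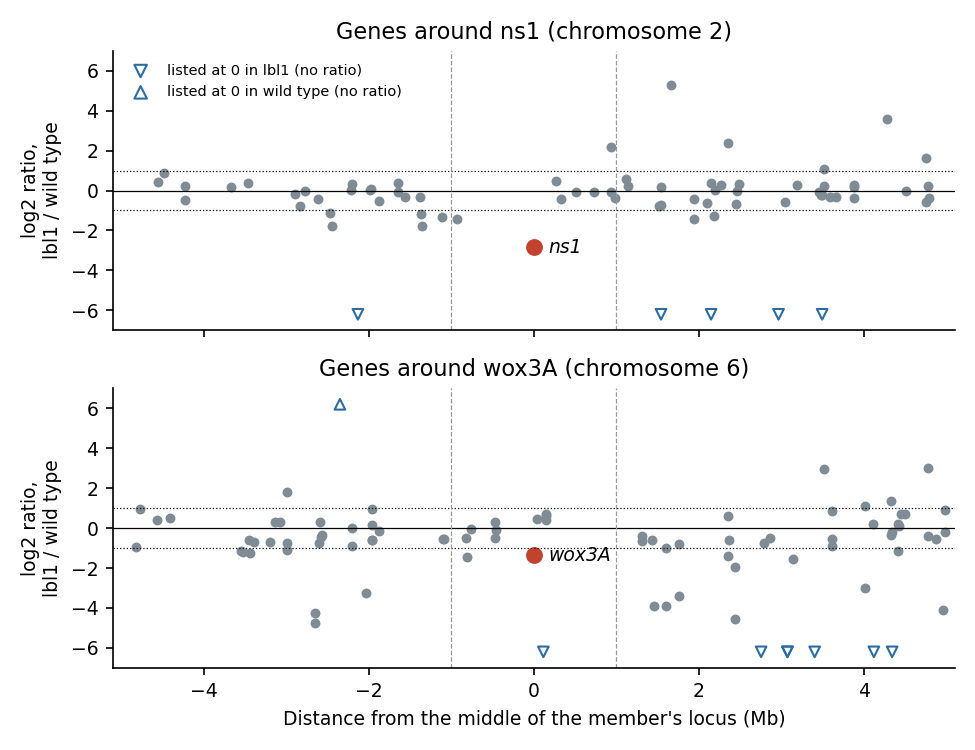
Log2 ratio of *lbl1* to wild type against the distance in Mb from *ns1* (top) and *wox3A* (bottom) for genes that reached 1 RPKM in either genotype, with dashed lines at 1 Mb and dotted lines at 2-fold; open triangles at the edges mark genes listed at 0 in one genotype, which have no ratio. 5 genes around *ns1* and 7 around *wox3A* were listed at 0 in *lbl1*, and the points around *wox3A* have their median at −0.52.

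YABBY transcription factors mark lateral organs and, like *WOX3* genes, are known for roles in leaf outgrowth. All 8 matched YABBY genes reached 1 RPKM, 1 was at least 2-fold higher and 0 were 2-fold lower, and their median log2 ratio was 0.05, against −0.09 over all genes. The highest ratio was that of *YAB6* (GRMZM2G074124), at 6.91 RPKM in the wild type against 22.3 RPKM in the mutant, a 3.22-fold difference. The lowest was that of *YAB3* (GRMZM2G106204), at 28.1 and 17.8 RPKM, 1.58-fold lower. The summed YABBY level was 264 RPKM in the wild type against 270.2 RPKM in the mutant.

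The *ARF3* genes, targets of the tasiR-ARFs, differed in the opposite direction to the *WOX3* genes. 4 of 5 were at least 2-fold higher in *lbl1* and the median log2 ratio was 1.36. The levels in wild type and *lbl1* were 56.5 and 119.9 RPKM for *arf3a* (GRMZM2G030710), 38.0 and 46.7 RPKM for *arf3b* (GRMZM2G441325), and 14.9 and 38.2 RPKM for *arf3c* (GRMZM2G056120). They were 45.2 and 138 RPKM for *arf3d* (GRMZM2G437460), and 23.9 and 64.1 RPKM for *arf3e* (GRMZM5G874163). The study identified these targets by target prediction and degradome sequencing of B73 apices, and the list was made with results of these data known, so their direction is no independent evidence. Even the lowest wild-type *ARF3* level, 14.9 RPKM, was above that of both *WOX3* genes.

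Adaxial identity depends on HD-ZIP III factors, of which 2 were matched. *rld1* (GRMZM2G109987) was at 116.7 RPKM in the wild type against 64.7 RPKM in the mutant, 1.80-fold lower, and *rld2* (GRMZM2G042250) was at 67.6 and 49.1 RPKM, 1.38-fold lower. Cuffdiff marked the *rld2* locus as failed, as it did 1 of the 8 YABBY loci (*YAB5*, GRMZM2G116646), whereas both *WOX3* loci carry its OK status. Neither HD-ZIP III gene passed the 2-fold criterion that both *WOX3* genes passed. The *WOX3* genes have far lower levels, with the higher value of each between 1 and 5 RPKM. Of the genes whose higher value lies in that range, 23.2% were at least 2-fold lower. The 2 groups are thus not compared at like levels, and with a pseudocount of 1 RPKM *wox3A* did not pass.

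**Figure D4:**
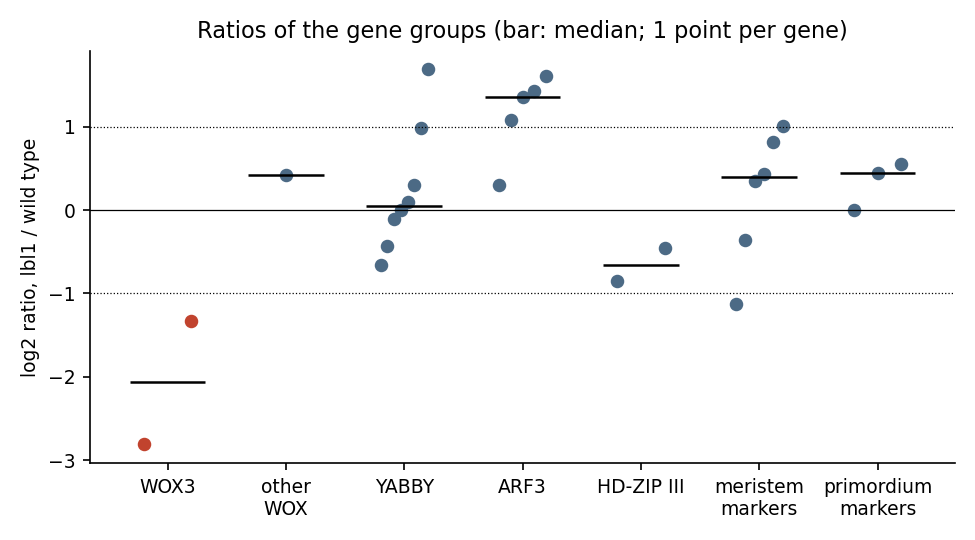
Log2 ratio of *lbl1* to wild type for each gene that reached 1 RPKM in either genotype and a value above 0 in both, by group, with a bar at the median of the group and dotted lines at 2-fold. Both *WOX3* genes lie below the lower line, as does 1 of 6 meristem markers, and 4 of 5 *ARF3* genes lie above the upper line.

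Marker genes were read beside the tissue label. The 6 matched meristem markers all reached 1 RPKM, and *kn1* (GRMZM2G017087), a homeobox gene that marks the meristem and is off in leaf founder cells, was at 69.3 RPKM in the wild type against 123 RPKM in the mutant, 1.77-fold higher. The summed level of the 6 markers was 169 RPKM in the wild type against 256 RPKM in the mutant, with 1 gene (*lg3*) at least 2-fold higher and 1 (*td1*, 2.19-fold) at least 2-fold lower. Of the 4 matched leaf primordium markers, *rs2* (GRMZM2G403620), which keeps *KNOX* genes such as *kn1* off in leaves, was at 39.0 RPKM in both genotypes. The summed level was 46.0 and 48.4 RPKM, most of it from *rs2*. Among the others, *ra2* was 1.36-fold and *lg2* 1.47-fold higher in *lbl1*. *lg1* was lower but under 1 RPKM in both genotypes, at 0.479 RPKM in the wild type against 0.140 RPKM in the mutant. The 6 matched markers of the expanded leaf summed to 53.2 RPKM in the wild type against 149 RPKM in the mutant, 3 of them were at least 2-fold higher, and the C4 gene *pep1* was listed at 0 in both genotypes. Most of that difference came from *Ppdk1* (GRMZM2G306345), which encodes pyruvate phosphate dikinase of the C4 pathway and was at 0.441 RPKM in the wild type against 62.2 RPKM in the mutant. Without GRMZM2G306345, the other 5 markers summed to 52.8 RPKM in the wild type against 86.7 RPKM in the mutant, a ratio of 1.64. They include GRMZM2G097457, which matched by the symbol PPDK1 alone and which the later annotation names PPDK2. It was at 1.35 RPKM in the wild type against 6.32 RPKM in the mutant and is among the 3 counted as higher. The 3 matched root markers summed to 67.9 and 69.9 RPKM. In both genotypes that is above the sum of the leaf primordium markers, so these sums cannot settle the tissue label. The summed levels of meristem and expanded leaf markers were higher in *lbl1*, where the *WOX3* levels were lower. Not every meristem marker was higher. *td1* was lower, and so was *fea2*, at 20.3 RPKM in the wild type against 15.8 RPKM in the mutant. Any part of these marker differences in the *WOX3* levels was not tested.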

How the data were processed

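Messenger RNA was sequenced from 2 wild-type and 2 *lbl1* apex samples. The authors aligned trimmed reads with TopHat to the B73 RefGen_v2 genome plus known exon junctions and derived RPKM from uniquely mapped reads with Cuffdiff, requiring 50 alignments for a test. The deposited RPKM values are 1 per gene and genotype over its 2 samples. The table also holds the authors' log2 fold changes, test statistics, p-values and q-values, which were not used. Small RNA samples, 3 per genotype, were not analysed here. Both members carry the status that Cuffdiff gives to loci with enough alignments, and no gene with that status was below 1.71 RPKM in its higher genotype. Reads per sample were not used, so the depth and the precision of a value are unknown.

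Ratios are *lbl1* over wild type without a pseudocount, and a gene was counted at 2-fold if it reached 1 RPKM in either genotype, a gene at 0 in one genotype counting as past 2-fold. With 1 value per genotype, no test was run here, and the test for values per sample could not be used. Locus starts count from 0 in the table, so 1 was added. Lists were matched by table symbol or by the symbols and synonyms of the NAM-5.0 annotation, whose coordinates were not used. Apart from GRMZM2G097457, identifiers that only shared a symbol with a marker were left out, as were *phb* symbols, which also name prohibitin genes. The genes named are the members, *lbl1*, *WOX* genes at 1 RPKM or more, *ARF3* genes, the extremes of the YABBY and HD-ZIP III lists, direct neighbours, and the 3 genes nearest in log2 RPKM. The nearest neighbours at 1 RPKM, *wus1*, *wus2* and the markers named were chosen after their values were seen, as was the comparison with genes between 1 and 5 RPKM. Members and lists were chosen with earlier results of these data known. The calculations were tested on simulated data and used Python 3.11.15, numpy 2.4.6, pandas 2.3.3 and matplotlib 3.10.9.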

Additional observations from a re-analysis of the deposited data

How the results depend on the processing

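Both *WOX3* genes passed at a criterion of 1.5-fold and, at 2-fold, under scaling to the median gene or to the 75th percentile and without a filter on low values. At 4-fold, 1 gene (*ns1*) was left, and with a pseudocount of 1 RPKM also 1 (*ns1*). A filter of 5 RPKM left no member and gives no value. The log2 ratios of *ns1* and *wox3A* were −2.71 and −1.23 relative to the median gene, −2.84 and −1.36 relative to the 75th percentile, −2.53 and −1.25 with a pseudocount of 0.1 RPKM, and −1.41 and −0.81 with a pseudocount of 1 RPKM, which moves low values most. The median log2 ratio of genes around *ns1* was 0.038 within 0.5 Mb (2 genes) and −0.057 within 5 Mb, and around *wox3A* it was 0.40 within 0.5 Mb (7 genes) and −0.52 within 5 Mb. These medians change sign with the window, and the cause was not tested. Without a filter, 2 of the other *WOX* genes were at least 2-fold higher and 3 at least 2-fold lower, the added ones below 1 RPKM. No paired analysis was possible because the table holds 1 pooled value per genotype, and for the same reason no replicate could be left out.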
